A study of Mus musculus with 3 samples.

Results

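The regions described here are the TBX5 peaks over Aldh1a2 and its flanks on mouse chromosome 9, chosen by position: the peak summit had to lie between 71.10 and 71.40 Mb of build mm10. The window held 6 of the 28381 peaks in the deposited list. The list comes from chromatin immunoprecipitation and sequencing (ChIP-seq), which maps where a protein sits on DNA, on lungs dissected whole from E14.5 embryos of the outbred CD-1 mouse stock. An antibody to TBX5 was used for 2 libraries, each from 1 lung, and a further library, the input, holds unselected chromatin. Lung stands in the titles of all 3 libraries, but ChIP library 2 and the input carry heart as their source, and the list holds no value that could tell the libraries apart. No error between replicates can therefore be given for any peak.

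TBX5 is a T-box transcription factor of heart, forelimb and lung mesoderm, and it recognises the half-site AGGTGT. Aldh1a2 encodes retinaldehyde dehydrogenase 2, which oxidises retinaldehyde to retinoic acid, the ligand of the nuclear receptors encoded by the Rar genes. In the mouse embryo the enzyme is made in mesodermal cells, and embryos that lack it fail to form lung buds. Tbx5 has been reported to act upstream of Aldh1a2 in cardiopulmonary development, so the question put to the list was where at this locus TBX5 was found in the fetal lung. Retinaldehyde is made from retinol by the enzyme of Rdh10, and retinoic acid is degraded by the Cyp26 enzymes.

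Aldh1a2 is a gene of 80.5 kb on the plus strand, annotated by RefSeq (GRCm38.p6, the assembly of mm10) from 71215789 to 71296243. TBX5 peaks lay deep inside the gene and beyond its last base, and none lay at its start. The promoter is shown here because no peak covered it although it holds the letters of a T-box half-site. It is set beside both annotated promoters of Aldh1a1, the paralogue that makes the same product, and the first promoter of Rxrg, a retinoid receptor gene. A strong peak overlapped the last 69 of the 250 bases shown for Rxrg, while a second annotated Rxrg promoter, not shown, was overlapped by none. All are RefSeq sequences of GRCm38.p6, plus strand, 250 bases ending at the base before the annotated start, and capitals mark AGGTGT or its reverse complement ACACCT.
Aldh1a2 (chr9:71215539-71215788): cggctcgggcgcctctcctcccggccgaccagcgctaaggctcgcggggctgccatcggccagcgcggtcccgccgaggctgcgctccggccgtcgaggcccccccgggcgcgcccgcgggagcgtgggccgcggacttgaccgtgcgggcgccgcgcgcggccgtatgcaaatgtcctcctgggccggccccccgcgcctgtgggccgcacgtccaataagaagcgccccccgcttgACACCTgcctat
Aldh1a1, first start (chr19:20492333-20492582): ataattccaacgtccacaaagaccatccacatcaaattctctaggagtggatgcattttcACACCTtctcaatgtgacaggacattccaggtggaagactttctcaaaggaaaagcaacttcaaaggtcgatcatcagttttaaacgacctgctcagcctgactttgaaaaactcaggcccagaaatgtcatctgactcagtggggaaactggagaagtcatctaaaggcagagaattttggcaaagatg
Aldh1a1, second start (chr19:20601718-20601967): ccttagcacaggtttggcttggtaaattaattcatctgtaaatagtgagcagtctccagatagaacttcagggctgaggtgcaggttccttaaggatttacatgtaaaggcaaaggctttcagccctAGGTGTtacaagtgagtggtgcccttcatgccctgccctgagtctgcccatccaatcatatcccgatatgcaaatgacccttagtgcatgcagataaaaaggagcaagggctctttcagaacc
Rxrg, first start (chr1:167598112-167598361): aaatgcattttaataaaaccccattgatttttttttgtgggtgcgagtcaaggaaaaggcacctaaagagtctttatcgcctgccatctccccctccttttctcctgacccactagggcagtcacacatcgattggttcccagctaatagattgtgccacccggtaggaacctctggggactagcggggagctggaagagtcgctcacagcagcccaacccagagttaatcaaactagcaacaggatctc

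The Aldh1a2 promoter held 1 half-site, on the minus strand, from 12 to 7 bases before the start. Neither strand held the longer T-box motif GGTGTGA, the GATA motif AGATAA, the NK2 motif AAGTG, the TEAD motif GGAATG or the nuclear receptor half-site AGGTCA. Of 32619 annotated promoter windows of 300 bases (250 before and 50 after the start), 13.8% held AGGTGT or ACACCT, 3.98% GGTGTGA, 11.2% AGATAA, 46.3% AAGTG, 14.6% GGAATG and 16.2% AGGTCA, both strands counted and overlaps between motifs allowed. Across all windows, 13.3% were overlapped by a TBX5 peak by at least 1 base, and among those with the half-site 10.8% were, against 13.7% of those without it. The Aldh1a2 window consisted of 78% G and C with 50 CG pairs, where the median window had 53% and 7. Of the 636 windows with at least that share of G and C, 40.1% were overlapped by a peak. The Aldh1a2 window was not, and the nearest peak began 25.9 kb downstream of it. Among the 20 retinoic acid pathway genes examined, 17 had promoter sequences in the table, with 31 windows in all, some of them overlapping windows of the same gene. Of these 31 windows, 9 were overlapped by a peak, 7 held a half-site and 0 had both. Among all 32619 windows 484 had both, so 31 windows are too few for the 0 to be read against that share.

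The 6 peaks fell into a group of 5 inside the gene and 1 peak in the downstream flank, and they are numbered here from the start of the gene onwards. Strength is given by the authors' peak caller as a fold enrichment at the summit over the local background and as the −log10 of a q-value. Both are the authors' own values for each peak and are used only to rank peaks within this list. Many peaks have equal values, and tied peaks all receive the best rank among them, so a rank is not an exact position. Peaks among the 5000 with the highest −log10 q are called strong.

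**Figure D1:**
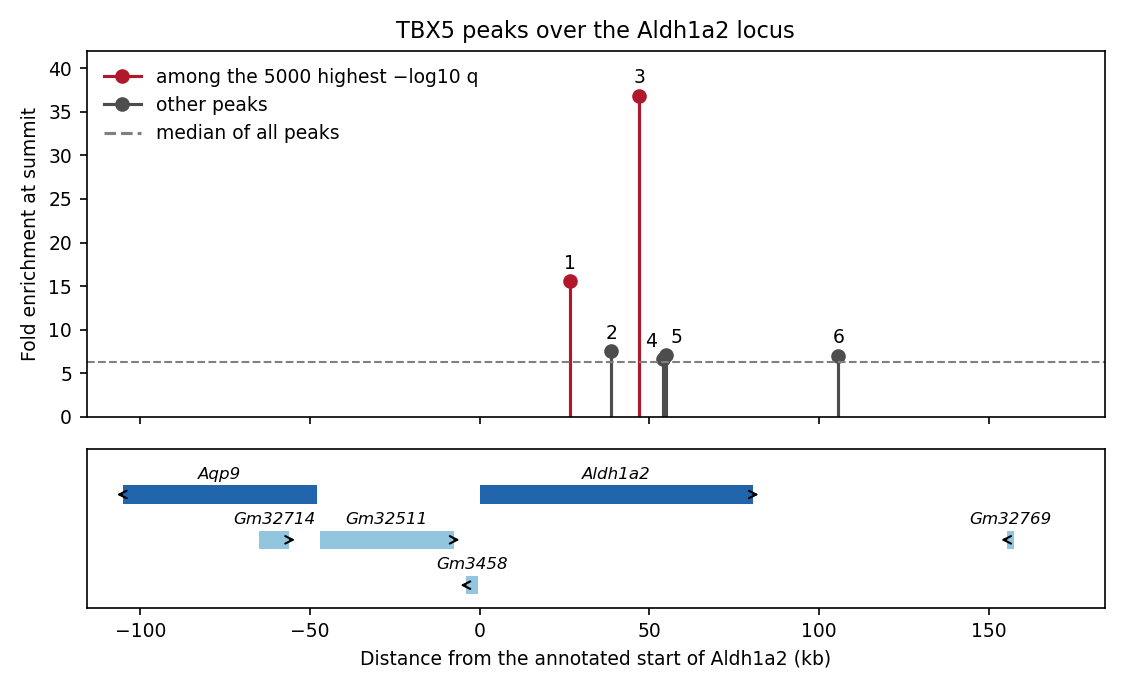
Fold enrichment of each of the 6 TBX5 peaks (upper panel) against distance in kb from the annotated start of Aldh1a2, with annotated genes below (dark, protein-coding; light, lncRNA; arrows give the direction of transcription). Peaks 1 and 3, in red, are among the 5000 with the highest −log10 q, the other 4 lie just above the median of all peaks at 6.27-fold (dashed line), and the stretch before the start is empty.

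Peak 3 was the strongest of the locus. It ran from 71262716 to 71263111, with 36.9-fold enrichment and a −log10 q of 124, and its summit lay 47.1 kb downstream of the start and 33.4 kb before the last base of Aldh1a2, at 58.5% of the gene's length. It ranked 251 among 28381 peaks by −log10 q and 271 by fold, within the top 1% on either scale (0.884% and 0.955%), and 8 among the 1446 peaks of chromosome 9. Peak 1, the other strong one, ran from 71241757 to 71242742 with 15.5-fold enrichment and a −log10 q of 32.1. Its summit lay 26.5 kb downstream of the start, and it ranked 2991 by −log10 q and 2582 by fold. The fold of peak 3 was 2.37 times that of peak 1 and 5.59 times that of the weakest peak of the locus.

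The other 3 peaks inside the gene were modest. Peak 2 ran from 71254351 to 71254693, between both strong peaks, with 7.54-fold enrichment (−log10 q of 9.91, rank 11482). Peaks 4 and 5 formed a close pair with summits 766 bp apart and 434 bp between their edges. Peak 4, from 71269806 to 71270099, had 6.60-fold enrichment (−log10 q of 7.74, rank 14577), the lowest of the 6 on both scales. Peak 5, from 71270534 to 71270783, had 7.07-fold enrichment (−log10 q of 8.81, rank 12984). Its summit lay 54.9 kb from the start and 25.6 kb before the last base. Peak 6 stood alone in the downstream flank, from 71321329 to 71321663, 25.2 kb past the last base of Aldh1a2, with 7.01-fold enrichment and a −log10 q of 17.8 (rank 6192). The 4 peaks that were not strong thus lay between 6.60 and 7.54-fold, slightly above the median of the whole list, 6.27-fold (quartiles 5.07 and 9.22), and apart from peak 4 the members (5 of 6) were in the upper 50% of the list by −log10 q.

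Of the 6 peaks, 2 were strong, against 17.6% of all peaks, and the same 2 reached 10-fold, against 21.2% of all peaks. A count of 2 in 6 is too small to be read against these shares. Inside a protein-coding gene and over 1 kb from any gene end lay 5 of the 6, against 41.4% of all peaks, and within 1 kb of a gene end lay 0, against 17.6% of all peaks. All 6 were over 25 kb from the nearest end of a protein-coding gene, as were 52.0% of all peaks, and for each of the 6 that nearest gene was Aldh1a2. The window was chosen around Aldh1a2, so place inside a gene and nearest gene were largely set by that choice. Counts among 6 peaks are also too small to be read against these shares.

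The 6 peaks differed in shape as well as strength. Peak 1 was 986 bp wide and ranked 302 by width in the whole list, whose median was 291 bp (range 189 to 1979 bp). Among the 495 peaks with a fold within 5% of its own, 97.0% were narrower and the median width was 466 bp. Peak 3, at 2.37 times its fold, was 396 bp wide. It was the narrowest of the 96 peaks within 5% of its fold, whose median width was 649 bp and whose next narrowest was 402 bp. With a tolerance of 10% in place of 5%, 8 of 196 such peaks were narrower than peak 3 (4.08%). The other 4 peaks were 250 to 343 bp wide. Peak 6 differed from them in another way: of the 1870 peaks within 5% of its fold, only 6 had a higher −log10 q, and their median was 9.35. Peaks 2, 4 and 5 lay towards the other end. Their −log10 q was below the median of peaks of like fold (11.0, 8.29 and 9.66), and only 8.20%, 8.32% and 9.36% of those peaks had a lower one. A higher one was found in 1116 of 1720, 1430 of 2235 and 1050 of 1731, and the rest had the same value.

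**Figure D2:**
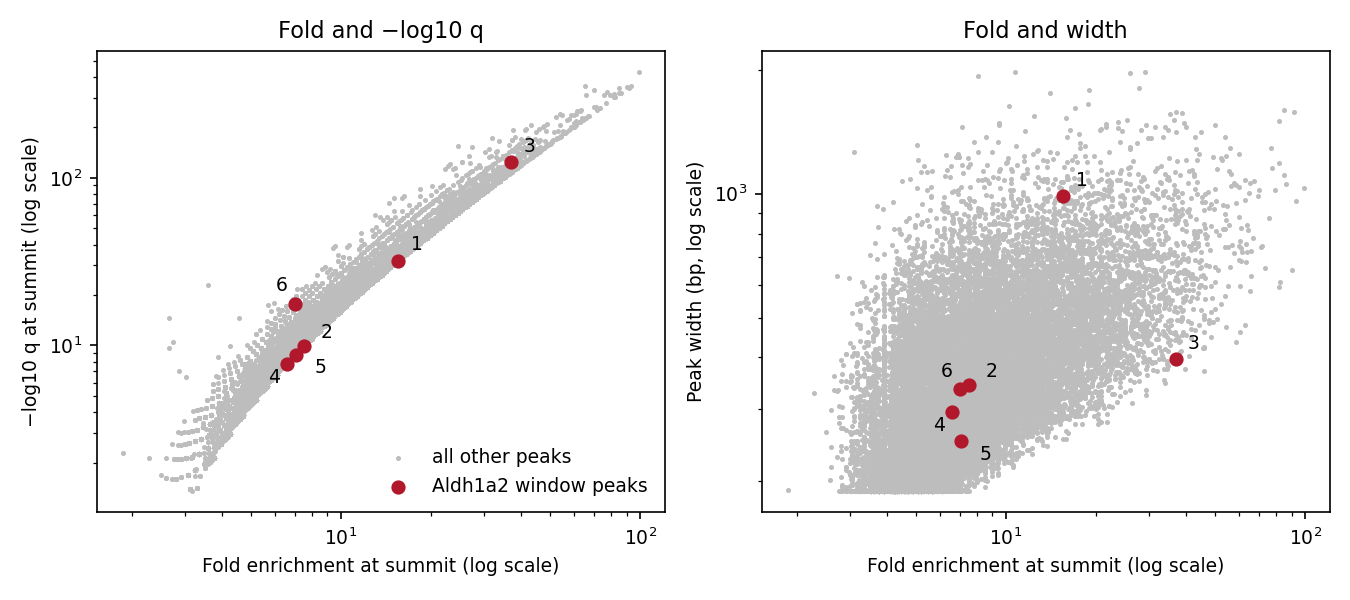
Every peak of the list (grey) and the 6 numbered peaks of the Aldh1a2 window (red), by fold enrichment and −log10 q (left) and by fold enrichment and width in bp (right), all on log scales. Peak 6 lies near the upper edge of the band at about 7-fold on the left, and on the right peak 3 lies at the lower edge of the cloud at 396 bp and peak 1 near its upper edge at 986 bp.

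Counted along the gene, the part nearest the start held 1 summit, the middle 2 and the part nearest the last base 2, in a division of the gene into 3 equal parts. The 5 summits spanned 28.3 kb, leaving 26.5 kb free of peaks after the start and 25.6 kb before the last base. Gaps between neighbouring summits were 12.2, 8.35, 7.04 and 0.766 kb inside the gene, and 50.8 kb separated peak 5 from peak 6. Peak density inside the gene was 62.1 per Mb (exact 95% Poisson interval 20.2 to 145.03, counting error only), from 5 peaks in 80.5 kb. In the 104 kb of the window beyond the last base it was 9.64 per Mb (0.244 to 53.7), from 1 peak. In the 116 kb before the start it was 0, with an upper limit of 31.9 per Mb. The intervals of the flanks overlap that of the gene. Runs of at least 5 summits within 30 kb, a span chosen after the locus had been seen, included 4008 peaks of the list (14.1%), and 7431 (26.2%) with a span of 50 kb.

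The empty stretch before the start held several genes. Aqp9, which encodes a channel for water and glycerol, lies on the minus strand from 71110659 to 71167849 and contained 0 summits. The lncRNA gene Gm3458 runs away from Aldh1a2 on the minus strand, its first base 403 bp from the Aldh1a2 start, and contained 0 summits, as did the lncRNA genes Gm32714, Gm32511 and, in the downstream flank, Gm32769. The nearest summit upstream of the locus lay 386 kb before peak 1, inside Lipc, the gene of hepatic lipase, at 5.73-fold and outside the window by 244 kb. Of the 28361 gaps between neighbouring summits in the list, 3.99% were longer, and the median gap was 28.8 kb. That share counts gaps and not the length they cover, and a long gap covers more of the genome than a short one. Of all consecutive windows of 300 kb, 30.2% held no peak, with stretches that cannot be mapped not left out. On the other side the next summit lay 98.6 kb after peak 6 and 20.1 kb outside the window, with 6.17-fold enrichment, 58.3 kb from the nearer end of Polr2m. The list gives no coverage between peaks, so an empty stretch means only that no peak was listed there.

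Set against the whole genome, the number of peaks at the locus was above the median but not extreme, while the number and strength of peaks inside the gene were near the upper end. Of 8763 consecutive windows of 300 kb, 78.9% held fewer than 6 peaks and 16.4% held more, with a median of 2, a mean of 3.24 and a maximum of 52. Counting strong peaks alone, 86.2% of windows held fewer than the 2 found at Aldh1a2 and 5.77% held more. Windows in stretches that cannot be mapped were not left out, and any such windows raise the shares with fewer peaks. Genes of about the same length give a closer setting. Of 2013 protein-coding genes of 60 to 110 kb, Aldh1a2 included, 4.47% held at least 5 summits, 3.48% held at least 2 strong ones, and 45.3% held none. In 17 of them (0.845%) the highest peak inside the gene ranked at least as high as that of Aldh1a2. Nearby genes can overlap and share a peak, so these are shares of annotated genes and not of independent loci.

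**Figure D3:**
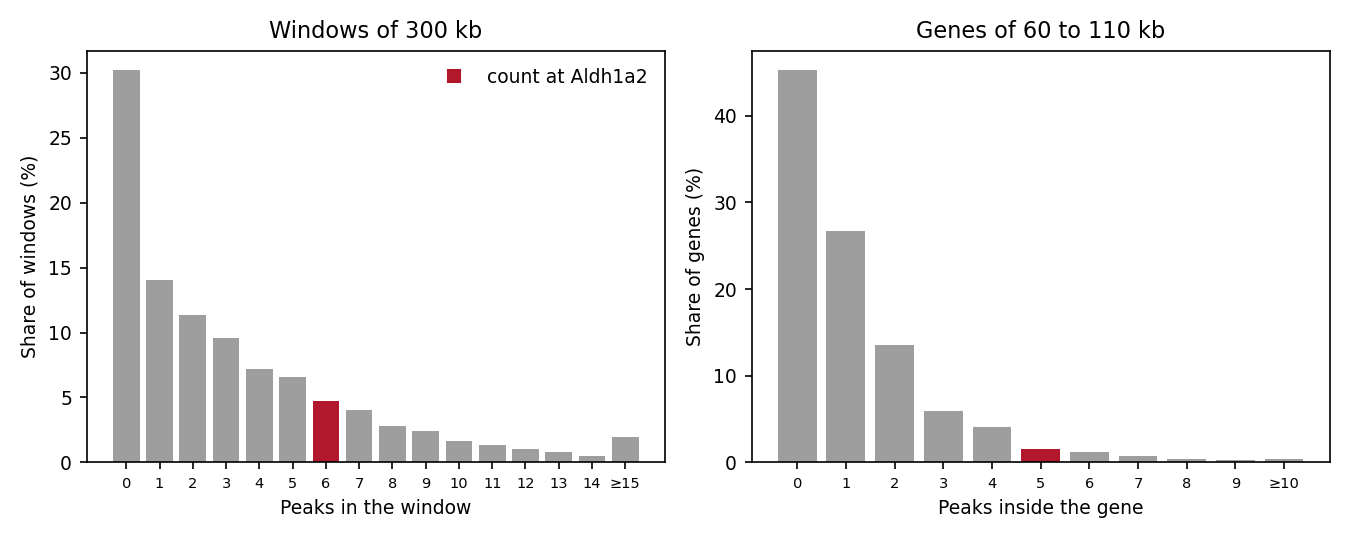
Share of 300 kb windows by the number of peaks they hold (left) and share of protein-coding genes of 60 to 110 kb by the number of peaks inside them (right), with the count found at Aldh1a2 in red. The Aldh1a2 window, with 6 peaks, lies above 78.9% of windows, and only 4.47% of the genes hold 5 or more peaks.

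The 5 genes of 60 to 110 kb whose highest peak, inside the gene and over 1 kb from its ends, had the rank nearest to that of Aldh1a2 were Cacng4, Lims1, Pcdhga10, Pcdhga11 and Pcdhga12. Cacng4 encodes a subunit of calcium channels and had 2 peaks inside, 1 of them strong, the highest at 41.9-fold (rank 233). Lims1, which encodes an adaptor of integrin adhesions, had 4 peaks, 2 of them strong, the highest at 40.5-fold (rank 264). The Pcdhga genes, of the clustered protocadherins, each had 6 peaks inside, 3 of them strong, against 5 and 2 inside Aldh1a2. These genes overlap one another and share the highest peak, of 32.3-fold (rank 269), so they count as 1 locus. Likeness here is the rank of 1 peak in 1 list, and no more.

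Among the 3 genes whose enzymes make retinoic acid, Aldh1a2 had the highest peak and the only strong peaks inside a gene. Over the gene plus 100 kb on each side, the setting used for the genes that follow, Aldh1a2 kept its 6 peaks, 2 of them strong (21.4 per Mb, exact 95% Poisson interval 7.85 to 46.6). Aldh1a1, a gene of 151 kb on chromosome 19, had 5 peaks (14.2 per Mb, 4.63 to 33.3), 4 of them inside the gene and none strong, the highest at 6.67-fold (peaks of a gene are ordered by −log10 q). Aldh1a3, on chromosome 7, had 4 peaks (16.9 per Mb, 4.61 to 43.3), all outside the gene, of which 1 was strong at 20.7-fold, 79.4 kb from the nearer gene end. The intervals of the 3 counts overlap. The highest peaks lay in different places and differed in strength: 36.9-fold inside Aldh1a2, 6.67-fold inside Aldh1a1, and 0 peaks inside Aldh1a3.

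Peaks lay near every gene examined in the wider pathway, as near most genes of the genome. All 20 genes had at least 1 peak within the gene or 100 kb of it, against 77.5% of all 21631 protein-coding genes, and 11 (55.0%) had a strong one, against 29.8% of all. With a flank of 50 kb the 11 became 9, against 19.7% of all genes, and with 10 kb 7, against 10.2%, and Aldh1a2 was still among them. Median counts were 6 peaks for the 20 genes and 3 for all genes, and median densities 23.8 and 9.82 per Mb. Aldh1a2 stood at rank 10 of 20 by number of peaks, sharing it with Rdh10 and Crabp2, and at rank 2 by its highest −log10 q. The one gene above it was Bco1, whose enzyme cleaves beta-carotene to retinaldehyde. Its highest peak, 37.2-fold at rank 222, lay 66.0 kb outside that gene, and Bco1 had 0 peaks inside. Inside a gene, the highest −log10 q of the pathway was that of Aldh1a2. A peak inside was found for 13 of the 20 genes, against 28.9% of all protein-coding genes. A strong peak inside was found for 5 of the 20 genes, against 7.22% of all protein-coding genes: Aldh1a2, Cyp26b1, Rarb, Rxra and Rxrg. The shares of all genes given here were not matched for gene length, so they cannot show an excess at the pathway genes. Among genes of 60 to 110 kb, 45.3% held no peak inside, a lower share than among all genes.

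**Figure D4:**
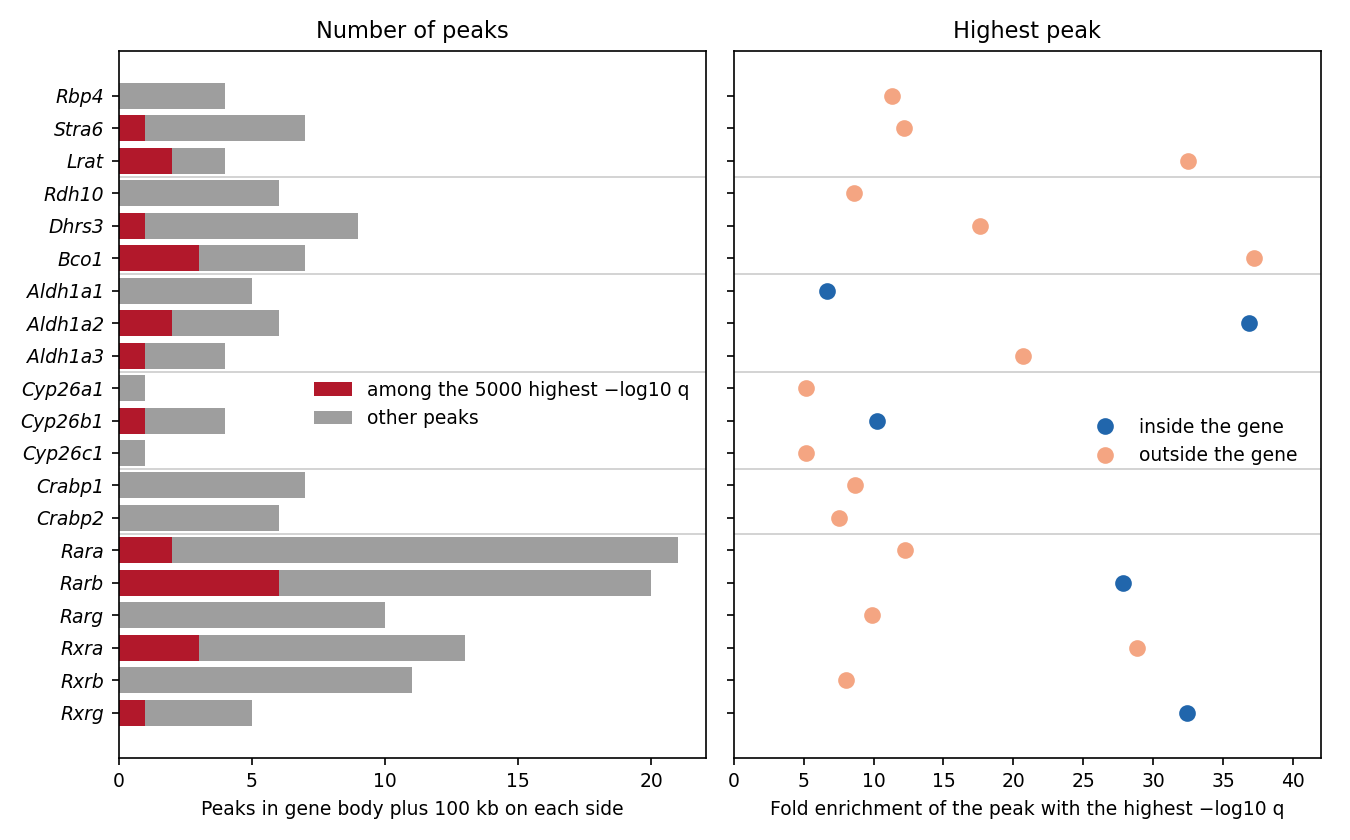
Peaks within each retinoic acid pathway gene plus 100 kb on each side (left, number of peaks, strong ones in red) and fold enrichment of the peak with the highest −log10 q (right, coloured by its place), with genes grouped from top to bottom by role: uptake and storage, retinaldehyde, synthesis, degradation, binding of retinoic acid, and receptors. Aldh1a2, with 6 peaks, has a middling count, and its 36.9-fold peak is the highest of those inside a gene.

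By role, the steps before Aldh1a2 had strong peaks in 4 of 6 genes, against 29.8% of all protein-coding genes, a count too small to be read against that share. Rdh10, which supplies its substrate, had 6 peaks, none strong, the highest at 8.58-fold and 1.03 kb outside the gene. Dhrs3, which turns retinaldehyde back to retinol, had 9 peaks, 1 of them strong (17.6-fold, outside the gene). Among the genes of retinol uptake and storage, Stra6, the receptor for the plasma carrier Rbp4, had 7 peaks, 1 of them strong (12.2-fold), Lrat, which esterifies retinol, had 4, 2 of them strong (32.5-fold, 77.0 kb outside), and Rbp4 had 4, none strong. Of the degrading enzymes, Cyp26b1 had 4 peaks, 1 of them strong and inside the gene (10.2-fold). Cyp26a1 and Cyp26c1 are neighbours and shared a single peak of 5.18-fold. Crabp1 and Crabp2, carriers of retinoic acid in the cell, had 7 and 6 peaks, none strong. The receptors had the highest median, 12 peaks, and 5 of the 6 had 10 or more: 21 at Rara, 20 at Rarb, 13 at Rxra, 11 at Rxrb, 10 at Rarg and 5 at Rxrg. Strong peaks were found at Rarb (6), Rxra (3), Rara (2) and Rxrg (1), the last at 32.4-fold with its summit 0.093 kb from the first annotated start. Rarb is a gene of 651 kb, so its count is not comparable with that of shorter genes without scaling, and per Mb Rarb (23.5) was close to Aldh1a2 (21.4), while Rara reached 85.0. For 9 of the 20 genes, Aldh1a2 among them, the gene itself had the protein-coding end nearest to its highest peak. For the other 11 another gene was nearer.

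The tissue named by the titles was examined through 2 short lists of genes. Strong peaks lay within 100 kb of 6 of 10 genes of lung mesenchyme and of 6 of 12 genes of heart muscle, against 29.8% of all protein-coding genes. The lung mesenchyme genes had a median of 8 peaks (4 to 24) and the heart muscle genes a median of 4 (1 to 7), against a median of 3 for all protein-coding genes. These counts were not scaled for gene length, and the difference between the lists was not tested. Whether DNA from heart entered the list was not tested.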

How the data were processed

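TBX5 ChIP-seq of E14.5 mouse lung is represented by 1 deposited list of 28381 peaks, in the layout MACS2 writes and without a header. Per the submitters' processing notes, the authors used Bowtie2, SAMtools and MACS2 with build mm10. Versions, settings, any merging of the 2 ChIP libraries and the role of the input were not given in the sources used here. The fold (ratio of signal at the summit to local background), the −log10 q and the integer score are values deposited by the authors. Library depth is unknown, and it limits both fold and q, so peaks were ranked only within the list. The summit was the start plus the deposited offset, and starts are given 1-based.

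Genes (21631 protein-coding, chromosomes 1 to 19 and X) and 32619 promoter windows came from RefSeq tables of GRCm38.p6. These give gene ends, strand and promoter sequence; exons and the sequence under the peaks were not used here, so introns were not told from exons, and the planned motif searches at the peaks were replaced by searches in promoters. Motifs were matched exactly on both strands. Intervals on counts are exact 95% Poisson intervals for counting error alone. No test was made, since the list has no replicates. Genes named were those of the retinoic acid list, those in the window, and the 5 genes of 60 to 110 kb with the nearest rank of the highest peak. The members and lists were chosen with earlier results of these data known. One gene of the retinoic acid list is not reported here and is left out of its counts. Alternatives covered thresholds, ranking, windows and flanks. Python 3.11.15, pandas 2.3.3, numpy 2.4.6 and scipy 1.17.1 were used, and the counting and motif steps were tested on simulated data.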

Additional observations from a re-analysis of the deposited data

How the results depend on the processing

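Limits of these results are that 1 list stands for all libraries, so that no spread between replicates is known, that its depth is unknown, and that a weak peak need not be present in both ChIP libraries. No paired analysis was possible because the list has no columns per library and no result comes from a test. The 6 peaks became 2 when only the 5000 peaks with the highest −log10 q were counted, by the construction of that threshold, and stayed at 5 or 6 with the upper 50% of peaks, with peaks at or over 5-fold, with any overlap, with the gene plus 50 or 100 kb, with the gene alone or with summits within 1 kb counted once. Strong peaks numbered 2 by either ranking, 1 among the highest 1000 and 3 among the highest 10000. The share of windows with fewer peaks was 78.9%, 78.8% and 78.3% with the windows shifted, and 86.2% for strong peaks. The rank of the highest peak was 251 by −log10 q, 271 by fold and 8 on chromosome 9 alone. The 11 pathway genes with a strong peak (29.8% of all genes) became 7 with a flank of 10 kb (10.2%) and 7 with assignment to the nearest gene end (10.9%), where fewer peaks per gene can count, and 9 with 50 kb (19.7%). The following were chosen after seeing the data. A span of 50 kb in place of 30 kb put 7431 peaks in runs of 5. With folds within 10% or 20% of its own, 4.08% or 4.28% of peaks were narrower than peak 3, 97.2% or 97.3% were narrower than peak 1, and 99.4% or 99.1% had a lower −log10 q than peak 6. The searches for motifs in the whole peak or in windows around the summits were not run.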

Other observations

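The higher of the strong peaks inside Aldh1a2 was the narrower one, at 396 bp for peak 3 and 986 bp for peak 1. Among the 1002 peaks that ranked within the first 1000 by −log10 q, ties included, 6.29% were narrower than peak 3, and their median width was 624.5 bp. In the downstream flank, peak 6 had a −log10 q above that of 99.5% of peaks of like fold. Among those 1870 peaks of like fold, 19.8% lay within 1 kb of a gene end, against 17.6% of all peaks. Peak 6 lay 25.2 kb from the nearest gene end, and 52.0% of all peaks lay over 25 kb from one. These patterns were noticed in the list and have no replicate check, and what sets them was not tested.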
